A study of Mus musculus with 110 samples.

Results

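The messages of 9 genes of the circadian clock were followed through 4 tissues of mice that ate a methionine-restricted (MetR) diet, were kept in the cold, or both. They were chosen by name, though with earlier results of these data known. They were the activators Arntl (also called Bmal1), Clock and Npas2, the nuclear receptors Nr1d1 and Nr1d2 (REV-ERBα and REV-ERBβ), the output factors Dbp, Tef and Hlf, and their counterpart Nfil3. These are 9 of the 56884 gene identifiers in the count tables, and all 9 had enough counts to be tested in every tissue. Polyadenylated RNA was sequenced from liver, interscapular brown adipose tissue (iBAT), inguinal white adipose tissue (iWAT) and epididymal white adipose tissue (eWAT) of 28 mice. All were wild-type male C57BL/6N mice from 1 supplier, 16 weeks old and housed singly, with 7 mice in each of 4 groups. Ctrl_RT mice ate a control diet with 0.86% methionine for 7 days at 22 °C, and MetR_RT mice ate a diet with 0.12% methionine under the same conditions. Ctrl_CE and MetR_CE mice ate these diets for 7 days and were then exposed to 4 °C for 24 h. Both diets lacked cysteine, so the control groups were also without dietary cysteine. Lights were on from 6 to 18 h and tissues were taken between 9 and 11 h, that is 3 to 5 h after lights on, so each mouse gave 1 time point and no rhythm was measured. Room temperature and cold groups were killed on different days of the diet, and the hour of death of each mouse is not given in the sources used here. As clock genes change within such a window, a difference in hour between groups and an effect of the treatment cannot be told apart.

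As background, the clock of a mouse cell is a loop of transcription. ARNTL pairs with CLOCK or with its relative NPAS2 and switches on genes that carry an E-box, among them the period and cryptochrome genes, whose proteins repress the pair, and the REV-ERB genes, whose proteins repress Arntl, Npas2 and Nfil3 through sites called ROREs. DBP, TEF and HLF are PAR bZIP factors that activate genes with a D-box, many of them metabolic genes of the liver, and NFIL3 (E4BP4) represses from the same site. In mouse liver and fat, Arntl and Npas2 messages are high around lights on and fall through the light phase, while those of Nr1d1, Dbp, Tef and the period genes rise during it.

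Total counts per library ranged from 6987895 to 33444374 in liver, 12672686 to 31232349 in iBAT, 16607493 to 33141066 in iWAT and 22021114 to 33372110 in eWAT. Of 110 libraries, all but 5 entered the fits, because the study had left out 1 iBAT library of Ctrl_CE and, in eWAT, 3 of Ctrl_RT and 1 of MetR_RT. Groups then held 7 libraries, except 6 in iBAT Ctrl_RT, iBAT Ctrl_CE, iWAT MetR_CE and eWAT MetR_RT and 4 in eWAT Ctrl_RT. In iBAT, 3 libraries carried a treatment tag of another group and were placed by their titles. Tissue labels fitted their markers: the summed CPM (counts scaled to a common library size) of 4 adipocyte genes were 15.9 to 42.9 in liver and 9145 to 26265 in fat. Ucp1, the uncoupling protein of brown fat, rose by 0.86 (log2) in iBAT and 4.08 in iWAT of Ctrl_CE. Asns, asparagine synthetase, rose by 2.00 in liver of MetR_RT and was not called in liver of Ctrl_CE. In fat Asns was not specific to the diet, as it was called higher with Ucp1 in iBAT and iWAT of Ctrl_CE. Neither gene was called in iBAT of MetR_RT or in any comparison of eWAT. In iBAT of MetR_RT, Ucp1 and Asns each passed the adjusted p and missed the fold threshold. Asns there ran from 38.9 to 54.7 CPM in Ctrl_RT and from 59.7 to 77.6 in MetR_RT, while the ranges of Ucp1 overlapped. In eWAT neither gene passed the adjusted p. The median of Asns in eWAT was 69.4 CPM in Ctrl_RT and 58.7 in MetR_RT. Cell type markers moved as well. In iWAT, 4 of 4 brown adipocyte markers were called higher and 4 of 4 macrophage markers lower in each of the 3 treated groups (the median sum of the brown markers was 230 CPM in Ctrl_RT, 3098 after cold alone, 1580 on the diet alone and 4514 on both, and that of the macrophage markers 1145, 456, 307 and 185). In liver, 4 of 4 endothelial markers were called higher in Ctrl_CE and MetR_CE (median sum 65.7 in Ctrl_RT, 163 and 156). Summed skeletal muscle markers ran from 1.88 to 18859 CPM among iWAT libraries, and epididymis markers reached 969 CPM in 1 eWAT library of MetR_RT. The part of these markers in the results on the clock genes was not tested, and in whole tissue fewer cells of a type and less RNA per cell cannot be told apart.

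Among the 9 genes, 4 carried, in the 300 bases from 250 before to 50 after a transcription start, a match to the sites through which the loop is wired. Both strands were searched for the E-box CACGTG and its variant CACGTT, the D-boxes TTATGTAA and TTACGTAA, and the RORE cores TAGGTCA and TAGGTTA, and all 9 genes had a window in RefSeq (13 windows in all, build GRCm38.p6). In the stretches below, the match is in capitals and each line runs in the direction of the gene. No binding was measured. These stretches are shown because their letters match the REV-ERB site in Arntl and Nfil3 and the activator site in Nr1d1 and Tef. They lie at chr7:113207494-113207523 (Arntl, plus strand, 6 bases before the start of its second window), chr7:113207530-113207559 (Arntl, 31 bases after that start), chr13:52981033-52981062 (Nfil3, minus strand, read as the reverse complement of TAGGTCA), chr11:98775388-98775417 (Nr1d1, minus strand, the reverse complement of CACGTT), chr15:81802534-81802563 and chr15:81811264-81811293 (Tef, plus strand, in its first and second window).
Arntl, first site: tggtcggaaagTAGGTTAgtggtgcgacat
Arntl, second site: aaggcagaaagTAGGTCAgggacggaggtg
Nfil3: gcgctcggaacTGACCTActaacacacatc
Nr1d1: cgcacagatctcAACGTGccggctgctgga
Tef, first window: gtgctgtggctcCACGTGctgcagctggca
Tef, second window: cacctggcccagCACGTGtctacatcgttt
Of all 32851 RefSeq promoter windows of this length, 2.61% held TAGGTCA, 1.44% TAGGTTA, 7.15% CACGTG, 4.68% CACGTT, 0.938% TTATGTAA and 0.119% TTACGTAA. The share of windows or genes with any of these matches was not computed, so the 4 of 9 cannot be set beside it. These letters were not found in the windows of Clock, Npas2, Nr1d2, Dbp and Hlf, which says nothing of sites farther away.

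Without treatment, Nr1d1 was the most abundant of the 9 messages and Arntl and Npas2 were among the least abundant. On the scale of RPKM (CPM divided by the kilobases of exon, scaled over all tissues), Nr1d1 had the highest median in Ctrl_RT of every tissue, at 46.7 in liver, 37.7 in eWAT, 33.4 in iWAT and 28.97 in iBAT. Arntl lay at a median of 2.13 to 2.80 RPKM, Clock at 3.63 to 4.32 and Npas2 at 1.21 to 2.07. Arntl and Npas2 thus ranked from 7 to 9 among the 9 medians in every tissue and Clock from 5 to 7, as the plot of levels shows. Hlf set liver apart from fat, with a median of 9.34 RPKM there, 3.19 in iBAT, 0.931 in iWAT and 0.745 in eWAT. In an edgeR fit of all tissues with the mouse as a block, Hlf was 3.15 ± 0.21 log2 units lower in iWAT than in liver (adjusted p = 1.23e-22) and 1.45 ± 0.21 lower in iBAT than in liver (adjusted p = 7.91e-09), while iWAT and eWAT did not differ beyond their spread (0.08 ± 0.25, adjusted p = 0.912). Nfil3 fell in steps from liver (19.8 RPKM) through iBAT (12.4) and iWAT (5.38) to eWAT (3.90), and each of the 6 pairs of tissues passed the threshold. Dbp was lowest in iBAT (1.82 RPKM against 10.5 in liver, a difference of -2.31 ± 0.34, adjusted p = 8.89e-09), and iWAT and eWAT (3.85 and 3.36) did not differ beyond their spread. Of the 54 differences of level between tissues, 30 passed an adjusted p of 0.05, where 43.3% of the tests of all genes did.

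**Figure D1:**
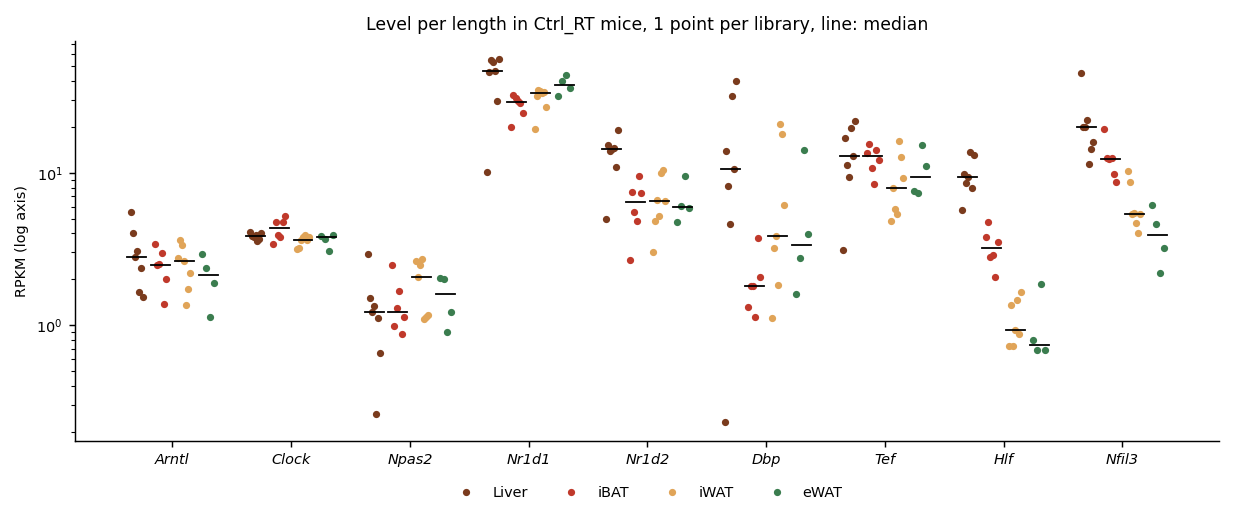
Levels of the 9 genes in Ctrl_RT mice, in RPKM on a log axis, for liver, iBAT, iWAT and eWAT; each point is 1 library and each line the median. Nr1d1 lies highest in every tissue, Hlf is higher in liver than in the white fat depots, and 1 liver library has Dbp at 0.231.

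Against Ctrl_RT, between 0 and 7 of the 9 genes were called in a treated group of a tissue. A gene was called changed at a Benjamini-Hochberg adjusted p under 0.05 in edgeR's quasi-likelihood test over all genes of a tissue and a fold change of about 1.5 or more in either direction (0.58 on the log2 scale). In Ctrl_CE, 5 of 9 were called in liver (3 higher, 2 lower), where 11.9% of all genes were called (7.28% higher, 4.64% lower). In iBAT it was 5 of 9 (3 higher, 2 lower) against 14.7% (4.97% and 9.72%), in iWAT 7 of 9 (5 higher, 2 lower) against 15.9% (5.99% and 9.94%), and in eWAT 2 of 9 (1 higher, 1 lower) against 2.42% (0.979% and 1.44%). In MetR_RT, 4 of 9 were called in liver (4 higher) against 6.91% of all genes (2.88% higher), 4 in iBAT (3 higher, 1 lower) against 2.5% (0.535% and 1.97%), and 4 in iWAT (3 higher, 1 lower) against 11.6% (4.25% and 7.36%). In eWAT of MetR_RT, 0 were called by edgeR and 0.115% of all genes, while 5 of 9 had an unadjusted p under 0.05 and DESeq2 called 2. MetR_CE gave 7 of 9 in liver (4 higher, 3 lower) against 13.5% (6.25% and 7.22%), 5 in iBAT (3 higher, 2 lower) against 14.7% (4.36% and 10.3%), 7 in iWAT (5 higher, 2 lower) against 22.4% (8.05% and 14.4%), and 7 in eWAT (5 higher, 2 lower) against 1.3% (0.601% and 0.695%). With all eWAT libraries, the 4 that the study left out included, 4, 1 and 7 genes were called in Ctrl_CE, MetR_RT and MetR_CE. The lower genes were Arntl, Npas2 and, in liver, Nfil3, and the higher genes were the REV-ERBs and the PAR bZIP factors, as the plot of fold changes shows. The 3 comparisons share the Ctrl_RT libraries, so they are not independent of each other. Median log2 fold changes of the 9 genes hide these opposite moves: they ran from 0.06 (liver, Ctrl_CE) to 1.07 (iWAT, MetR_CE), beside medians of all genes between -0.11 and 0.005.

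**Figure D2:**
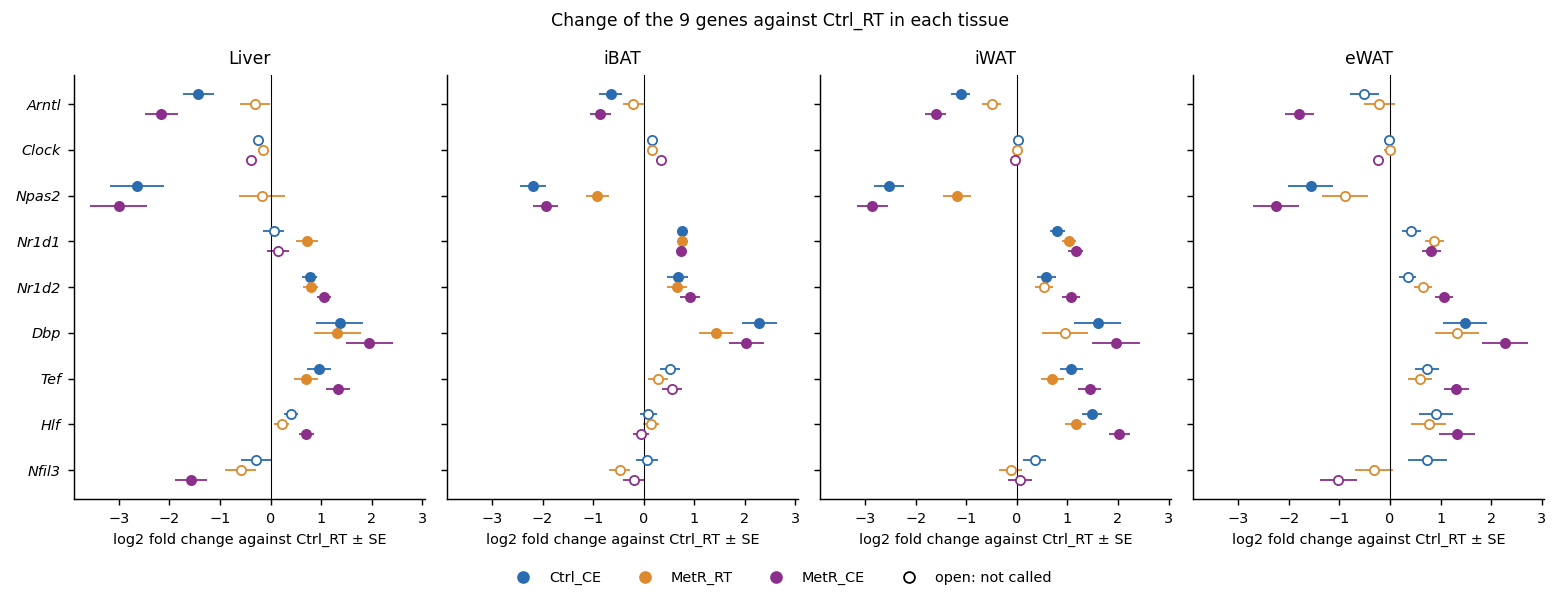
Log2 fold changes against Ctrl_RT of the 9 genes in 4 tissues for Ctrl_CE, MetR_RT and MetR_CE, from edgeR; bars are standard errors, and filled points passed the adjusted p of 0.05 and the fold threshold. Npas2 and Arntl lie below 0, Dbp, Nr1d2 and Tef above it, and Clock between -0.39 and 0.35.

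Npas2 showed the largest falls. In liver it ranged from 1.02 to 11.2 CPM in Ctrl_RT (median 4.68), 0.366 to 1.26 in Ctrl_CE (0.652), 0.962 to 13.1 in MetR_RT (1.85) and 0.238 to 1.34 in MetR_CE (0.515). Both cold groups thus overlapped Ctrl_RT only through its lowest library, and MetR_RT covered the whole range of Ctrl_RT. In iWAT the ranges were 6.04 to 15.1 CPM in Ctrl_RT, 1.40 to 3.09 in Ctrl_CE, 2.40 to 7.73 in MetR_RT and 0.847 to 2.19 in MetR_CE, and in iBAT 3.81 to 10.7, 0.777 to 1.77, 1.85 to 4.43 and 0.955 to 2.18. There, neither cold group overlapped Ctrl_RT. The 4 eWAT libraries of Ctrl_RT had 12.8, 12.5, 5.68 and 7.52 CPM, against 1.37 to 5.09 in Ctrl_CE and 0.745 to 4.34 in MetR_CE, again without overlap. Npas2 was called lower in all 4 tissues of Ctrl_CE: the log2 fold change was -2.64 ± 0.54 in liver (adjusted p = 0.000357, 6.25-fold lower), -2.19 ± 0.26 in iBAT (7.23e-08), -2.53 ± 0.29 in iWAT (7.67e-07) and -1.57 ± 0.45 in eWAT (0.0408). In MetR_CE it was again called lower in all 4, by -3.01 ± 0.57, -1.94 ± 0.24, -2.86 ± 0.31 and -2.25 ± 0.45 (adjusted p = 0.000121, 2.47e-07, 1.55e-07 and 0.00687). In MetR_RT it was called lower in iBAT (-0.92 ± 0.23, adjusted p = 0.0132) and iWAT (-1.18 ± 0.27, 0.00204), and the values in liver (-0.17 ± 0.45) and eWAT (-0.89 ± 0.46) did not pass. Without replicate 1 of Ctrl_RT, the fall in iBAT of MetR_RT was -0.68 with an adjusted p of 0.0594, and without eWAT Ctrl_RT replicate 1, 3 or 7 the fall in eWAT of Ctrl_CE no longer passed (adjusted p = 0.140, 0.104 and 0.0685).

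Arntl fell in liver, iBAT and iWAT of the cold groups and, in eWAT, in MetR_CE alone. Liver libraries had 8.97 to 33.4 CPM in Ctrl_RT (median 16.9), 4.85 to 8.73 in Ctrl_CE (6.80), 5.91 to 27.4 in MetR_RT (10.9) and 1.42 to 6.02 in MetR_CE (4.44). Every cold library of the liver lay below every Ctrl_RT library. In iWAT, Ctrl_RT ran from 11.8 to 30.9 CPM, Ctrl_CE from 7.29 to 13.4 and MetR_CE from 6.09 to 8.54, so that the last group alone stood apart. Brown fat moved less, with 9.35 to 23.1 CPM in Ctrl_RT, 5.01 to 13.6 in Ctrl_CE and 5.81 to 14.1 in MetR_CE, all overlapping. eWAT had 28.9, 23.3, 11.3 and 18.3 CPM in the 4 libraries of Ctrl_RT, 9.33 to 18.6 in Ctrl_CE, 9.32 to 36.2 in MetR_RT and 4.56 to 7.80 in MetR_CE. The last of these lay below all the other eWAT groups. For Ctrl_CE the log2 fold changes were -1.43 ± 0.31 in liver (adjusted p = 0.000667), -0.65 ± 0.22 in iBAT (0.0224) and -1.11 ± 0.19 in iWAT (9.66e-05), all called, and -0.51 ± 0.29 in eWAT, which was not. For MetR_CE all 4 tissues were called, with -2.16 ± 0.33 in liver (adjusted p = 5.28e-06, 4.47-fold lower), -0.86 ± 0.21 in iBAT (0.00234), -1.60 ± 0.21 in iWAT (1.15e-06) and -1.79 ± 0.29 in eWAT (0.00123). MetR_RT gave no call for Arntl, with values between -0.50 and -0.21. Clock, the other partner of ARNTL, was called in no tissue and no contrast. Its range in Ctrl_RT was 39.6 to 45.1 CPM in liver and 42.1 to 64.2 in iBAT, and in MetR_CE 25.2 to 38.9 and 59.8 to 83.7. The corresponding log2 fold changes, -0.39 ± 0.09 (adjusted p = 0.00145) and 0.35 ± 0.09 (0.00312), passed the p and not the fold threshold, and the liver groups did not overlap.

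**Figure D3:**
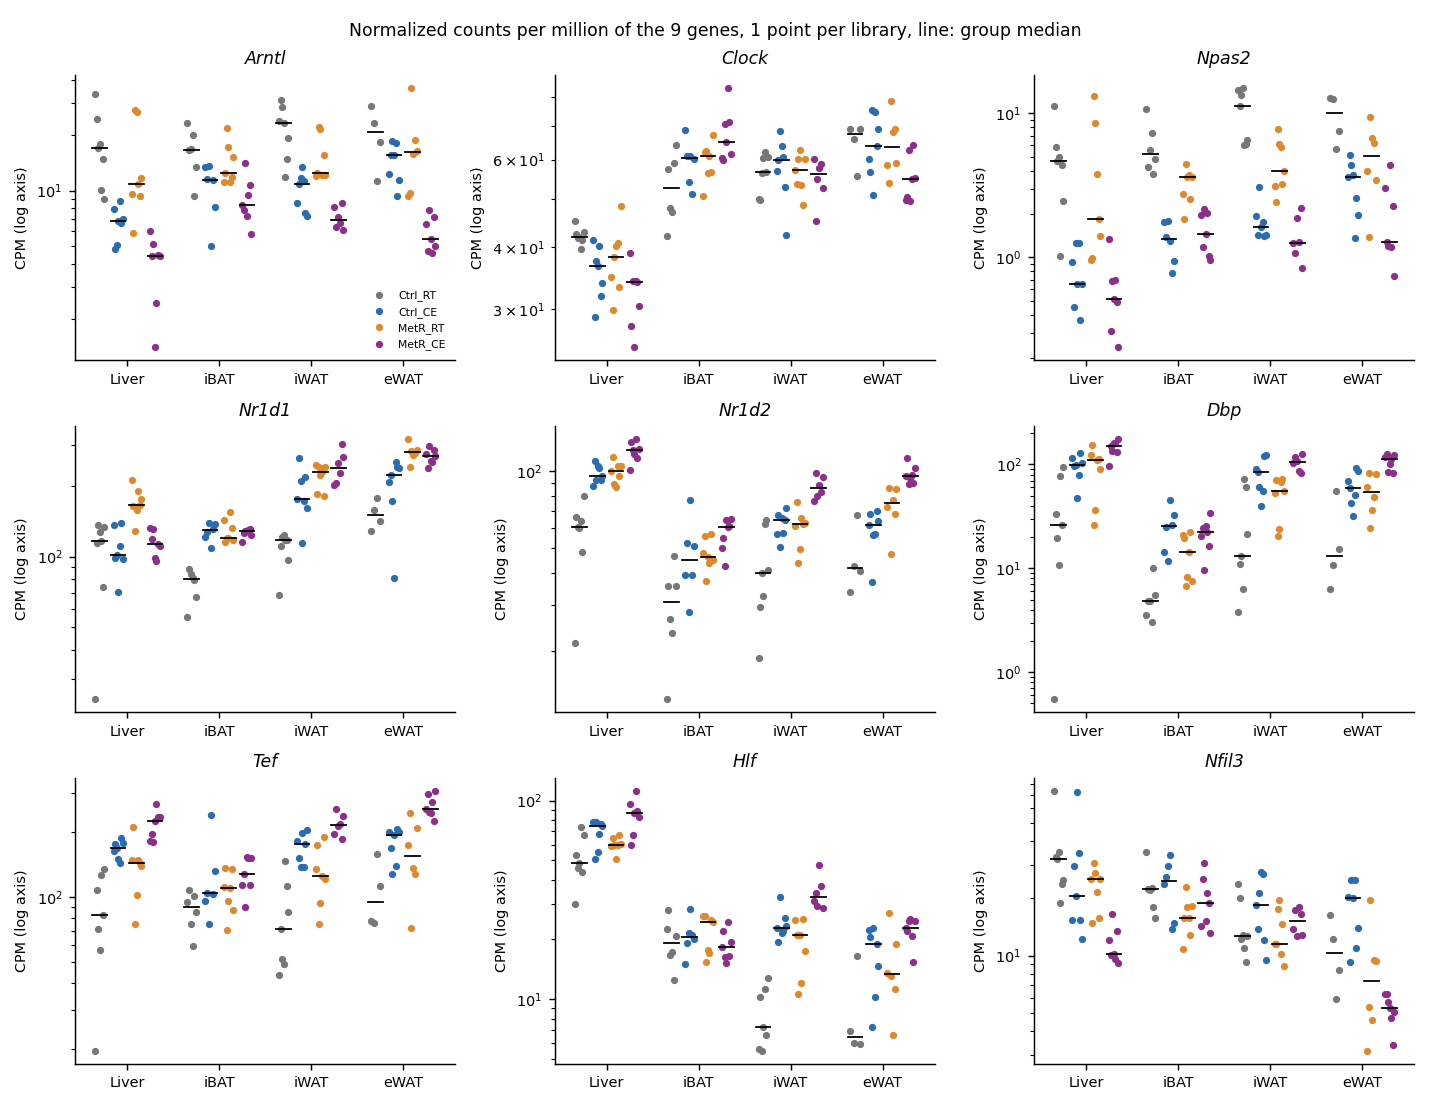
Values in CPM (log axis) of the 9 genes in each library of the 4 groups, by tissue; each point is 1 library and each line the group median. Npas2 and Arntl are lowest in the cold groups, Dbp and Nr1d2 are lowest in Ctrl_RT, and Clock lies lower in MetR_CE than in Ctrl_RT in liver.

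Both REV-ERB genes were called higher where they were called, Nr1d1 in 3 of 3 treated groups of iBAT and of iWAT and Nr1d2 in 3 of 3 of liver and of iBAT. Nr1d1 in iBAT ran from 55.0 to 88.2 CPM in Ctrl_RT (median 80.6), 108 to 139 in Ctrl_CE (130), 115 to 155 in MetR_RT (121) and 116 to 131 in MetR_CE (129). Each treated group of iBAT lay above all Ctrl_RT libraries and at about the same level as the others. The log2 fold changes were 0.75 ± 0.09 (adjusted p = 7.40e-08), 0.77 ± 0.09 (2.37e-06) and 0.73 ± 0.09 (7.49e-08). Grouping the 3 doubtful iBAT libraries by their treatment tag gave 0.56, 0.56 and 0.58, just under the fold threshold (adjusted p = 0.00108, 0.00759 and 0.000823). In iWAT, Nr1d1 went from 68.4 to 123 CPM in Ctrl_RT to 114 to 262.9 in Ctrl_CE, 181 to 246 in MetR_RT and 203 to 302 in MetR_CE, called with 0.80 ± 0.14, 1.03 ± 0.14 and 1.17 ± 0.15 (adjusted p = 0.000135, 4.19e-05 and 1.03e-06). Only the cold group on control diet overlapped Ctrl_RT there. Liver differed: Nr1d1 had 24.7 to 136 CPM in Ctrl_RT, 70.5 to 139 in Ctrl_CE, 129 to 212 in MetR_RT and 95.5 to 133 in MetR_CE, and of these MetR_RT was called higher (0.72 ± 0.21, adjusted p = 0.0146) while both cold groups were at 0.06 ± 0.21 and 0.14 ± 0.21. In eWAT the 4 Ctrl_RT libraries had 128, 159, 178 and 142 CPM, below all of MetR_RT (241 to 316) and MetR_CE (239.8 to 295.7), and MetR_CE was called higher (0.81 ± 0.19, adjusted p = 0.0184) while MetR_RT (0.88 ± 0.19, 0.0648) was not. That call was lost without Ctrl_RT replicate 1, 3 or 7, at an adjusted p of 0.0985, 0.0506 or 0.0668. Nr1d1 overlaps Thra on the other strand, and the library kit does not mark strand. Thra itself changed by -0.23 in liver and -0.31 in iBAT of Ctrl_CE and by 0.41 in iWAT of MetR_RT.

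Nr1d2 was the REV-ERB that was called higher in liver of every treated group. Its ranges there were 21.5 to 80.3 CPM in Ctrl_RT (median 60.4), 87.8 to 110 in Ctrl_CE (95.8), 86.4 to 113 in MetR_RT (99.9) and 101 to 133 in MetR_CE (121). No treated liver library overlapped Ctrl_RT, and the log2 fold changes were 0.77 ± 0.15 (adjusted p = 0.000158), 0.79 ± 0.15 (0.000209) and 1.06 ± 0.15 (1.50e-06). In MetR_CE it was also called in iBAT (0.92 ± 0.20, adjusted p = 0.000658), iWAT (1.07 ± 0.18, 4.23e-05) and eWAT (1.07 ± 0.18, 0.00146), where iWAT rose from 18.7 to 64.5 CPM in Ctrl_RT to 76.5 to 98.4, and eWAT from 33.7, 42.8, 67.7 and 40.98 CPM to 89.01 to 112. Smaller rises in Ctrl_CE were called in iBAT (0.67 ± 0.21, adjusted p = 0.0127) and iWAT (0.59 ± 0.18, 0.0132), and in MetR_RT in iBAT (0.66 ± 0.20, 0.0446). Leaving out 1 Ctrl_RT mouse took these below the thresholds, to 0.51, 0.46 and 0.50, and grouping by treatment tag did so for MetR_RT (0.51, adjusted p = 0.150).

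Dbp, a PAR bZIP factor known for a strong daily rhythm, had the largest rises of the 9 genes in liver, iBAT and eWAT of both cold groups. Liver had 0.551 to 93.5 CPM in Ctrl_RT (median 25.8), 47.8 to 130 in Ctrl_CE (99.3), 25.9 to 153 in MetR_RT (109) and 96.7 to 174 in MetR_CE (151), and the last group stood apart from Ctrl_RT. In iBAT the ranges were 3.05 to 10.1, 11.8 to 45.8, 6.81 to 22.4 and 9.53 to 34.2 CPM, and here Ctrl_CE stood apart. iWAT ran from 3.82 to 72.2 CPM in Ctrl_RT, 39.9 to 123 in Ctrl_CE, 20.5 to 72.7 in MetR_RT and 83.2 to 127 in MetR_CE. The eWAT libraries of Ctrl_RT had 6.24, 10.7, 55.8 and 15.3 CPM, against 31.5 to 93.3 in Ctrl_CE, 24.7 to 81.9 in MetR_RT and 83.04 to 127 in MetR_CE, so that in both white depots MetR_CE lay above all Ctrl_RT libraries. Dbp was called higher in all 4 tissues of Ctrl_CE, with 1.37 ± 0.47 in liver (adjusted p = 0.0265), 2.28 ± 0.35 in iBAT (5.39e-06, 4.87-fold higher), 1.60 ± 0.46 in iWAT (0.00916) and 1.48 ± 0.44 in eWAT (0.0492). It was called in all 4 of MetR_CE too, with 1.95 ± 0.47, 2.03 ± 0.34, 1.95 ± 0.48 and 2.28 ± 0.46 (adjusted p = 0.00174, 2.35e-05, 0.00178 and 0.00717). In MetR_RT it was called higher in liver (1.32 ± 0.47, adjusted p = 0.0461) and iBAT (1.42 ± 0.34, 0.00912), and the iWAT and eWAT values of 0.95 ± 0.46 and 1.33 ± 0.44 did not pass. The liver call of MetR_RT was lost in DESeq2 (adjusted p = 0.0544), the iBAT call of MetR_RT was lost when the 3 libraries with another tag were grouped by it (0.84, adjusted p = 0.194), and the eWAT call of Ctrl_CE was lost without Ctrl_RT replicate 1, 3 or 7 (0.167, 0.144 and 0.147). Dbp overlaps Sphk2 on the other strand, a gene that changed by -0.45 in liver and 0.16 in iBAT of Ctrl_CE.

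Tef rose with Dbp in liver and the white depots. It went in liver from 19.6 to 134 CPM in Ctrl_RT (median 82.9) to 144 to 187 in Ctrl_CE (167), 75.3 to 209 in MetR_RT (144) and 179 to 267.7 in MetR_CE (223), and both cold groups stood apart from Ctrl_RT. Log2 fold changes in liver were 0.96 ± 0.24 (adjusted p = 0.00267), 0.69 ± 0.24 (0.0392) and 1.34 ± 0.24 (6.06e-05), in iWAT 1.08 ± 0.22 (0.00052), 0.70 ± 0.22 (0.0208) and 1.44 ± 0.23 (1.59e-05), and all 6 were called. In eWAT only MetR_CE was called (1.31 ± 0.25, adjusted p = 0.00452), where the Ctrl_RT libraries had 77.6, 75.9, 158 and 113 CPM and MetR_CE 225 to 307. Brown fat gave no call, with 0.52 ± 0.20, 0.29 ± 0.20 and 0.55 ± 0.20 and CPM of 59.5 to 107 in Ctrl_RT and 89.6 to 152 in MetR_CE. The value of MetR_CE passed the p and not the fold threshold. Hlf, the third PAR bZIP factor, had its largest changes in iWAT, from 5.51 to 12.8 CPM in Ctrl_RT to 19.4 to 32.7 in Ctrl_CE, 10.6 to 25.4 in MetR_RT and 28.9 to 47.2 in MetR_CE. The 3 log2 fold changes there were 1.49 ± 0.20 (adjusted p = 5.85e-06), 1.16 ± 0.20 (0.000186) and 2.03 ± 0.21 (1.03e-07), and neither cold group overlapped Ctrl_RT. In liver, Hlf was called in MetR_CE (0.70 ± 0.14, adjusted p = 0.000312), from 30.2 to 73.8 CPM to 59.6 to 111, and Ctrl_CE (0.40 ± 0.14, 0.0340) stayed under the fold threshold. In iBAT it ran from 12.5 to 28.02 CPM in Ctrl_RT and 15.1 to 24.6 in MetR_CE, with log2 fold changes of 0.09, 0.14 and -0.06. The eWAT call of MetR_CE (1.32 ± 0.35, adjusted p = 0.0406) depended on which controls were used. The 4 kept Ctrl_RT libraries had 6.95, 6.01, 16.6 and 5.94 CPM and the 3 left out 42.2, 12.4 and 12.03, and with all libraries the value was 0.64 (adjusted p = 0.216). The changes of Tef and Hlf in iWAT went along with the markers of brown adipocytes and macrophages given above, whose part in them was not tested.

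Nfil3, the repressor that binds the sites of the PAR bZIP factors, fell in liver on both treatments together. Liver ranges were 18.8 to 73.2 CPM in Ctrl_RT (median 32.3), 12.2 to 72.2 in Ctrl_CE (20.6), 14.9 to 30.7 in MetR_RT (25.2) and 9.13 to 16.6 in MetR_CE (10.2), and MetR_CE lay below all of Ctrl_RT. Its log2 fold change in MetR_CE was -1.57 ± 0.31 (adjusted p = 0.000232), against -0.29 ± 0.30 in Ctrl_CE and -0.59 ± 0.30 in MetR_RT, which did not pass. No other tissue was called against Ctrl_RT, with values of MetR_CE of -0.19 ± 0.21 in iBAT, 0.06 ± 0.24 in iWAT and -1.03 ± 0.37 in eWAT, of which the last was called with all eWAT libraries (-1.01, adjusted p = 0.0351). In eWAT, Nfil3 had 16.3, 12.2, 5.88 and 8.37 CPM in Ctrl_RT, 9.30 to 25.1 in Ctrl_CE and 3.39 to 6.27 in MetR_CE, so the 2 cold groups did not overlap.

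Within the cold, the diet gave 4 calls, 3 of them in eWAT. MetR_CE against Ctrl_CE called 1 of 9 in liver (5.26% of all genes), 0 in iBAT (1.64%), 0 in iWAT (2.27%) and 3 in eWAT (4.35%). The liver gene was Nfil3 (-1.28 ± 0.31, adjusted p = 0.00613), a comparison in which 4 of 4 macrophage markers were lower too (median -1.33). Summed, these markers ran in liver from 100.3 to 148 CPM in Ctrl_RT, 101 to 457 in Ctrl_CE, where 3 of 4 were called higher, 48.5 to 102 in MetR_RT and 90.2 to 109.6 in MetR_CE, and their part in the fall of Nfil3 was not tested. The genes called in eWAT were Nfil3 (-1.76 ± 0.33, 0.00128), Arntl (-1.29 ± 0.26, 0.00228) and Nr1d2 (0.72 ± 0.14, 0.00227). Beside the counts of 0, edgeR and DESeq2 each gave 0 genes with an unadjusted p under 0.05 in iBAT and 4 in iWAT, and in eWAT each gave 7. On the MetR diet, the cold called 3 of 9 in liver (5.18% of all genes), 2 in iBAT (8.53%), 3 in iWAT (1.88%) and 1 in eWAT (0.112%). These were Arntl in all 4 tissues (-1.85 ± 0.33, -0.65 ± 0.21, -1.10 ± 0.20 and -1.58 ± 0.27), Npas2 in liver, iBAT and iWAT (-2.84 ± 0.57, -1.02 ± 0.24 and -1.68 ± 0.30), Nfil3 in liver (-0.97 ± 0.31, adjusted p = 0.0280) and Hlf in iWAT (0.87 ± 0.20, 0.0128). Dbp, Nr1d1, Nr1d2 and Tef gave no call in that comparison. The interaction, which asks whether both treatments together give other than the sum of each, called 1 gene in 1 tissue, Nr1d1 in iBAT (-0.78 ± 0.12, adjusted p = 0.00146, with 0.372% of all genes called in iBAT). There the cold and the diet each raised Nr1d1 by about the same amount and their combination raised it no further. Grouping the 3 doubtful iBAT libraries by their tag gave -0.54 with an adjusted p of 0.309. In iBAT, 3 of the 9 genes had an unadjusted p under 0.05 in edgeR, and DESeq2 called 3. The interaction estimates of Dbp (-1.68) and Npas2 (1.17) in iBAT were larger in size than that of Nr1d1 and were not called by edgeR. In liver, iWAT and eWAT the interaction called 0 of 9 in edgeR (1.06%, 1.65% and 2.3% of all genes), with 2, 3 and 2 at an unadjusted p under 0.05, and DESeq2 called 0, 1 and 1.

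The changes differed between tissues for some of the 9 genes, tested in the fit of all 4 tissues with the mouse as a block. Of 162 differences of a change between a pair of tissues, 33 passed an adjusted p of 0.05 (11 of 54 for Ctrl_CE, where 12.6% of the tests of all genes passed, 2 for MetR_RT against 5.72% and 20 for MetR_CE against 14.7%). Without the block 15 of the 33 passed and with limma 18, all 33 with the same sign. Hlf differed most, its rise in MetR_CE being 2.20 ± 0.29 log2 units larger in iWAT than in iBAT (adjusted p = 2.60e-08) and 1.31 ± 0.28 larger than in liver (0.000166). Tef rose less in iBAT than in liver (-1.07 ± 0.22, adjusted p = 0.000128) and than in iWAT, which exceeded iBAT by 1.13 ± 0.22 (8.02e-05), and both passed with limma (adjusted p = 0.0277 and 0.0156) and not without the block (0.0965 and 0.0567). Arntl fell less in iBAT than in liver, by 1.38 ± 0.27 in MetR_CE (adjusted p = 4.88e-05) and 0.85 ± 0.26 in Ctrl_CE (0.0150), of which the second did not pass without the block (0.223) or with limma (0.354). Clock, small as its changes were, went up in iBAT relative to liver in MetR_CE (0.74 ± 0.12, adjusted p = 1.61e-06). The rise of Nr1d1 was larger in iWAT than in liver (0.97 ± 0.19 in MetR_CE, adjusted p = 4.42e-05), and the fall of Nfil3 in liver exceeded its change in iWAT by 1.65 ± 0.27 (1.59e-06). Dbp had 0 differences past the threshold.

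Other genes of the loop and of its output, from lists chosen by their known roles, differed in direction between tissues and lists. Of 6 clock repressors, 4 were called higher and 0 lower in liver of Ctrl_CE, led by Per3 (2.16 ± 0.35, adjusted p = 2.14e-05) and Ciart (1.95 ± 0.49, 0.00305), with a list median of 1.07 against -0.01 for all genes. In iBAT of Ctrl_CE, 2 were higher (Per2, 1.41, and Ciart, 1.33) and 1 lower (Cry1, -0.94 ± 0.19, adjusted p = 0.000223), with a median of 0.42 against -0.08. In iWAT 3 were higher and in eWAT 0, and in MetR_CE the calls were 4, 2, 5 and 3 higher in liver, iBAT, iWAT and eWAT, with Cry1 in iBAT lower again (-0.90). MetR_RT called 1 higher in liver (Per3, 1.29), 1 in iWAT (Per2, 0.75) and 0 in iBAT and eWAT. Of 6 targets of the PAR bZIP factors, 3 rose in liver in each treated group, beside 7.28%, 2.88% and 6.25% of all genes. These were Cyp2a5, a cytochrome P450 whose counts are uncertain because Cyp2a4 is a near-identical copy (1.37 in Ctrl_CE, 2.77 in MetR_RT and 2.78 in MetR_CE), Por, the P450 reductase (1.07, 0.73 and 1.65), and Nr1i3, the nuclear receptor CAR (0.74, 1.12 and 1.66), and the list medians were 0.90, 0.50 and 1.51 against -0.01, 0.005 and -0.04 for all genes. In iBAT, 0 of the 5 tested targets rose in any treated group and Cyp2a5 was called lower in Ctrl_CE from counts at or near 0, in iWAT 1, 1 and 4 rose in Ctrl_CE, MetR_RT and MetR_CE, and in eWAT 0 rose and Cyp2b10, another P450, fell in MetR_CE (-3.19 ± 0.55). Of 6 clock-controlled output genes, 3 rose and 1 fell in liver of Ctrl_CE: Wee1, a mitotic kinase (2.69 ± 0.35), Usp2, a ubiquitin protease (2.43 ± 0.42), Nampt of NAD synthesis (0.63 ± 0.10), and Cdkn1a, a cell cycle inhibitor (-2.88 ± 0.61). Wee1 went the other way in iBAT (-1.16 ± 0.22, adjusted p = 8.93e-05), where Usp2 rose (1.46 ± 0.21). Of 13 other regulators of the loop, 0 rose and 4 fell in iBAT of Ctrl_CE, among them Rorb (-1.29 ± 0.46), an activator at the REV-ERB site, where 9.72% of all genes were lower, and of the 12 tested in liver 0 rose and 1 fell (Fbxl21, -0.65), where 4.64% of all genes were lower. Bhlhe40 and Bhlhe41, repressors that bind the E-box, were the 2 that rose in iWAT (1.33 and 1.19) and eWAT (2.20 and 1.52) of Ctrl_CE, while Rorb (-1.55) and Timeless (-0.64) fell in iWAT. Of 6 genes that respond to glucocorticoids, 0 passed in liver of Ctrl_CE, with a list median of -0.19. In iBAT of Ctrl_CE 2 rose (Mt2, 1.10, and Sgk1, 0.93) and 1 fell (Zbtb16, -1.16), with a list median of 0.19. There, 4.97% of all genes were higher and 9.72% lower. In iWAT and eWAT of Ctrl_CE, 0 rose and 1 fell. MetR_RT gave 1 fall in liver, 1 fall in iWAT and no call in iBAT or eWAT. MetR_CE gave 1 rise and 1 fall in liver and in iBAT, 2 rises and 1 fall in iWAT, and no call in eWAT.

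Mice of 1 group differed more in Dbp and Npas2 than in most genes. The within-group SD of log2 CPM of Dbp in liver was 1.31, higher than that of 99.7% of the 12514 genes with a mean of at least 1 CPM, whose median SD was 0.189, and that of Npas2 was 0.991 (99.2%). Clock, in contrast, lay near the median gene in every tissue (0.164 to 0.184). A single Ctrl_RT mouse, replicate 1 in each tissue, had the lowest liver values of Dbp (0.551 CPM, against 10.8 to 93.5 in the other 6), Nr1d1 (24.7, against 74.3 to 136) and Nr1d2 (21.5, against 48.6 to 80.3) and the highest of Arntl (33.4) and Npas2 (11.2). In its fat the same direction held, with Dbp at 3.56 CPM in iBAT, 3.82 in iWAT and 6.24 in eWAT. On the opposite side, liver Dbp was 77.1 and 93.5 CPM in replicates 5 and 7 of Ctrl_RT. In the same direction as replicate 1 of Ctrl_RT, 2 MetR_RT mice (replicates 3 and 4) had liver Arntl of 27.4 and 26.7 CPM. Their liver Dbp was 25.9 and 36.4 CPM, where the other 5 of MetR_RT had 90.6 to 153. Without Ctrl_RT replicate 1, the liver rises of Nr1d1 and Tef in MetR_RT were 0.54 and 0.51 and fell under the fold threshold, which left 2 of 9 called in place of 4.

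**Figure D4:**
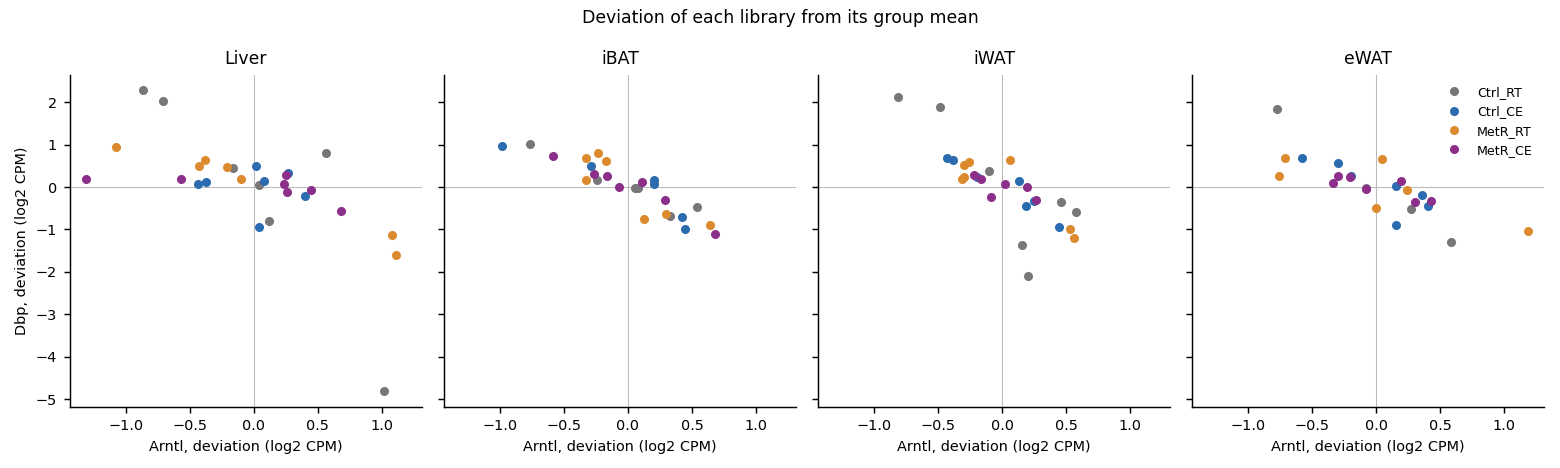
Deviation of Dbp from its group mean against that of Arntl in each library, in log2 CPM, with 1 panel per tissue and 1 colour per group. Dbp falls as Arntl rises in every tissue, with r of -0.902 to -0.655. In CPM, which the axes do not show, the Ctrl_RT liver library with 33.4 of Arntl had 0.551 of Dbp.

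In most of the 9 genes, a mouse that deviated from its group in 1 tissue tended to deviate the same way in the others. Correlations used the deviation of log2 CPM from the group mean over 23 to 27 mice with both tissues, with p from a two-sided permutation test within groups (100000 permutations) adjusted over 54 tests. Of the 54, 38 passed an adjusted p of 0.05 and 52 were positive, with a median Pearson r of 0.567. These tests were not run on other genes, so the share that genes in general would give is not known. The white depots were closest, with a median r over the 9 genes of 0.740 against 0.416 to 0.599 for the other 5 pairs of tissues. For Dbp, iWAT and eWAT gave r = 0.944 and rho = 0.889 (permutation, adjusted p = 0.00027 for both), and r = 0.908 without the 2 farthest mice. For Tef they gave r = 0.911 and rho = 0.889, and r = 0.911 without the 2 farthest. Before adjustment, the p-values of Dbp and Tef here were the smallest that 100000 permutations could give. Npas2 passed in all 6 pairs of tissues (r of 0.540 to 0.752, and 0.434 to 0.707 without the 2 farthest mice) and Arntl in 5 (0.383 to 0.783 over all 6). Nr1d1 also passed in 6 by r, but in 3 by rho, and most of its pairs leaned on few mice. Without the 2 farthest, its r went from 0.531 to 0.0376 for liver and iWAT and from 0.630 to 0.264 for liver and iBAT. Among fat depots it went from 0.624 to 0.331 (iBAT and iWAT), 0.630 to 0.314 (iWAT and eWAT) and 0.504 to 0.335 (iBAT and eWAT). For liver and eWAT it rose instead, from 0.389 to 0.476. Clock passed in 1 pair and Hlf in 2. All libraries of a mouse share its hour of death and its day, which the deviations from the group mean do not remove.

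**Figure D5:**
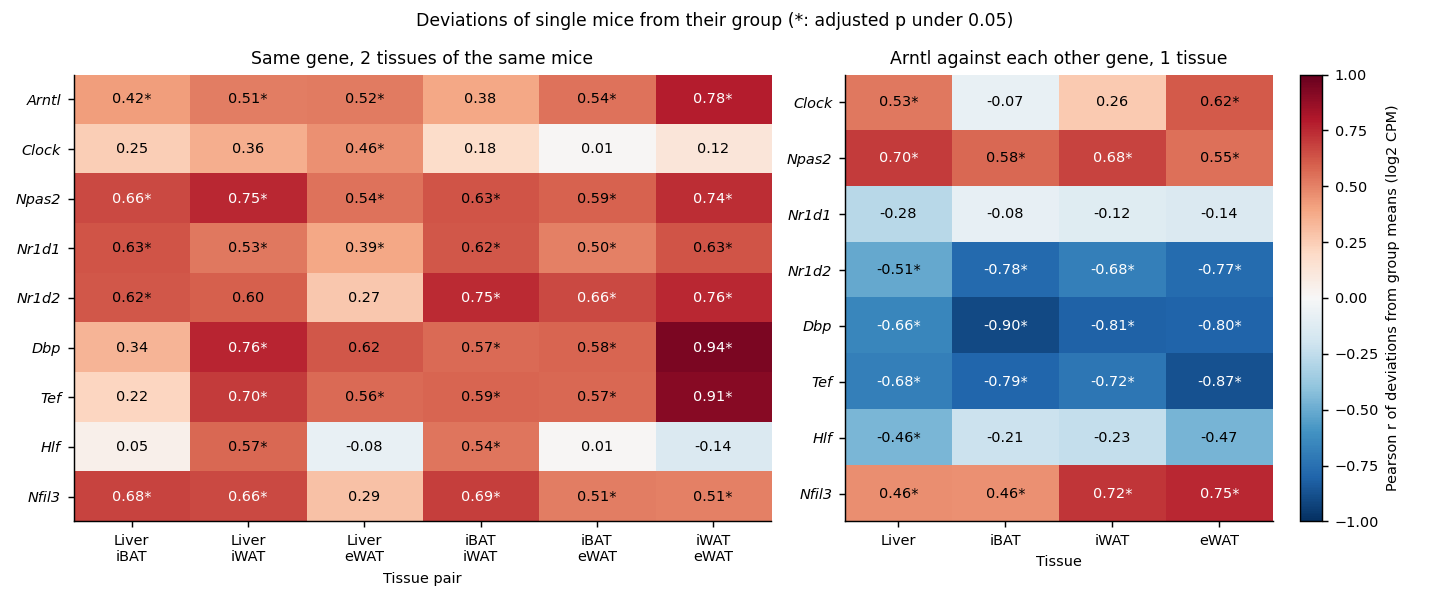
Pearson correlations of deviations from the group mean. The first panel gives each gene between pairs of tissues of the same mice and the second Arntl with each of the other 8 genes within a tissue; numbers in the cells are r. Dbp and Tef between the white depots reach 0.944 and 0.911, and Arntl is negative with Dbp, Tef and Nr1d2 and positive with Npas2 and Nfil3 in every tissue.

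Within a tissue, Npas2 and Nfil3 deviated with Arntl, and Dbp, Tef and Nr1d2 against it. Of 32 correlations over 24 to 28 libraries, 23 passed an adjusted p of 0.05 in the permutation test. Here too the share among genes in general was not computed. Npas2 (r of 0.548 to 0.702) and Nfil3 (0.455 to 0.750) were positive and passed in 4 of 4 tissues. Dbp (-0.902 to -0.655), Tef (-0.872 to -0.684) and Nr1d2 (-0.778 to -0.514) were negative and passed in 4 of 4. In iBAT, where Dbp was least abundant, its correlation with Arntl was the strongest of all (r = -0.902, rho = -0.912, -0.886 without the 2 farthest libraries, permutation, adjusted p = 0.00016 for r and 8e-05 for rho). Nr1d1 passed in 0 of 4 tissues (r of -0.281 to -0.0832), unlike Nr1d2, and the difference between the pair was not tested. Hlf passed in liver alone (-0.458, adjusted p = 0.0230, and rho = -0.346 with an adjusted p of 0.105), and Clock in liver (0.528) and eWAT (0.616). In iBAT and iWAT, Clock was at -0.071 and 0.260 and did not pass.

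Among 10911 genes with a mean of at least 1 CPM in every tissue, those whose deviations followed Arntl most closely, by the mean r over the 4 tissues, were Leo1 (0.749), Dtx4 (0.696), Npas2 (0.626), Slc16a1 (0.625) and Osgin1 (0.619). LEO1 belongs to the PAF1 complex of transcription elongation, and Slc16a1 encodes a monocarboxylate transporter. For Dbp they were Per3 (0.867), Tef (0.864), Nr1d2 (0.823), Ciart (0.647) and Per2 (0.643). Of these 10 genes, 3 were among the 9 studied here and 3 were clock repressors. These values are a description, and no test was run on them. Total counts differed between the libraries of a tissue and no batch is named in the labels, so their part was not tested.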

How the data were processed

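Whole-number read counts per gene of 110 libraries, with no normalization, were deposited by the authors as 3 tables for mouse assembly mm10. The study's methods name STAR 2.7.9a, featureCounts 2.0.3 and Salmon 1.9.0, the last also in the names of the tables. Values in 0 columns were left unused. Gene identifiers were matched without version to symbols (51948 of 56884). Groups were taken from sample titles and mice matched across tissues by the animal identifiers in the labels. The libraries the study left out were identified from its mean normalized counts (best subset of libraries off by a median of 0.184% in iBAT and 0.152% in eWAT, next best 1.06% and 0.64%).

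Counts were fitted per tissue with edgeR 4.0.16 (R 4.3.3; TMM, genes with at least 10 counts in a tissue, 27786 in eWAT, 26428 in iWAT, 23915 in iBAT and 22143 in liver), diet, temperature and their interaction in the model. Errors after ± are standard errors of log2 fold changes. Adjusted p-values are Benjamini-Hochberg over all genes of a contrast. The joint fit held 32143 genes, tissue by group and mouse. limma 3.58.1, DESeq2 1.42.0 with apeglm 1.24.0, other filters and scalings, all libraries, only the groups compared, each eWAT Ctrl_RT library left out and a replicate block were alternatives. RPKM, per kilobase of exon, and CPM were computed here. Code was tested on simulated data.

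The 9 genes, the pathway lists (37 genes) and the marker lists were chosen with earlier results of these data known. All 9 genes are named. From pathway lists every gene was counted, and at most 2 per direction, tissue and contrast were named by size of change, with others named after their values were seen. The values of 1 pathway gene that this rule names are not reported here. Leaving out replicate 1 of Ctrl_RT was also chosen after seeing the data. The library kit does not mark strand, so reads of Nr1d1 and Thra, Dbp and Sphk2, Arntl, Npas2, Tef and the predicted genes that overlap them cannot be told apart. Replicates are separate mice.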

Additional observations from a re-analysis of the deposited data

Results flagged for a closer look

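In 8 of the 144 groups of 4 to 10 libraries, 1 library stood apart from the others by Dixon's criterion, where chance gives about 5%. The number for each is the gap to the nearest library over the range of the group. Ctrl_RT replicate 1 had the lowest Nr1d1 in liver (0.644, with 24.7 CPM against 74.3 to 136) and in iWAT (0.595, 68.4 against 97.1 to 123), and the lowest Nr1d2 in liver (0.619, 21.5 against 48.6 to 80.3). In eWAT of Ctrl_CE, replicate 4 had the lowest Nr1d1 (0.665, 81.1 CPM against 173 to 253.6) and replicate 3 the lowest Nr1d2 (0.655, 36.9 against 56.1 to 70.001). Hlf in eWAT was highest in Ctrl_RT replicate 6 (0.848, 16.6 CPM against 5.94 to 6.95) and lowest in MetR_CE replicate 6 (0.599, 15.5 against 20.8 to 25.3). Npas2 was highest in iWAT Ctrl_CE replicate 3 (0.599, 3.09 CPM against 1.40 to 1.93).

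The change against Ctrl_RT differed between tissues in 33 tests of the fit of all tissues, each given here as the log2 fold change of the first tissue minus that of the second. In Ctrl_CE, the change in iBAT minus that in liver passed for Clock (0.41), Arntl (0.85), Nr1d1 (0.61) and Tef (-0.86). In Ctrl_CE, the change in iWAT minus that in liver passed for Hlf (1.06) and Nr1d1 (0.63). In Ctrl_CE, the change in eWAT minus that in liver passed for Arntl (0.86), Nfil3 (1.16) and Nr1d2 (-0.60). In Ctrl_CE, the change in iWAT minus that in iBAT passed for Hlf (1.57) and Tef (0.92). In MetR_RT, the change in iWAT minus that in liver passed for Hlf (0.89). In MetR_RT, the change in iWAT minus that in iBAT passed for Hlf (1.14). In MetR_CE, the change in iBAT minus that in liver passed for Npas2 (1.17), Clock (0.74), Arntl (1.38), Hlf (-0.89), Nfil3 (1.35) and Tef (-1.07). In MetR_CE, the change in iWAT minus that in liver passed for Clock (0.37), Hlf (1.31), Nr1d1 (0.97) and Nfil3 (1.65). In MetR_CE, the change in iWAT minus that in iBAT passed for Npas2 (-1.07), Clock (-0.37), Arntl (-0.75), Hlf (2.20) and Tef (1.13). In MetR_CE, the change in eWAT minus that in iBAT passed for Clock (-0.59), Arntl (-1.01), Hlf (1.33) and Tef (0.87). In MetR_CE, the change in eWAT minus that in iWAT passed for Nfil3 (-1.07). Without the mouse as a block 15 of these passed, with limma 18, with all libraries 31, and 14 in all 3. In iBAT, the diet by temperature interaction of Nr1d1 passed (-0.78 ± 0.12, edgeR, adjusted p = 0.00146), where the rises in Ctrl_CE, MetR_RT and MetR_CE were 0.75, 0.77 and 0.73.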

How the results depend on the processing

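Of 71 calls of the 9 genes, recomputed under the alternatives to give 670 values, 623 kept direction and threshold, 47 lost the threshold and 0 reversed. Scaling by RLE factors, filterByExpr and the replicate block lost 0 of the 71. Counts of called genes moved as follows. In liver of MetR_RT, 4 became 1 with apeglm, 1 with only the groups compared and 2 without Ctrl_RT replicate 1, and MetR_CE against Ctrl_CE went from 1 to 3 with only the groups compared. In iBAT, Ctrl_CE went from 5 to 3 without Ctrl_RT replicate 1, MetR_RT from 4 to 2 in that fit and to 1 by treatment tag, the interaction from 1 to 3 with DESeq2, with and without apeglm, and to 0 by tag, and MetR_CE against MetR_RT from 2 to 1 with apeglm. In iWAT, the interaction went from 0 to 1 with DESeq2 and with filterByExpr, and MetR_CE against MetR_RT from 3 to 5 with only the groups compared. In eWAT, Ctrl_CE went from 2 to 4 with DESeq2 and with all libraries, 1 with only the groups compared, 0 without the filter, and 0 to 5 when 1 Ctrl_RT replicate was left out (0 without replicate 1, 3 or 7, and 5 without 6). MetR_RT there went from 0 to 2 with DESeq2, 1 with apeglm, all libraries or filterByExpr, and 2 without replicate 6. The eWAT interaction went from 0 to 1 with DESeq2, with and without apeglm, and MetR_CE against MetR_RT from 1 to 3 with DESeq2 and to 0 with only the groups compared. The 33 differences between tissues became 15 with no replicate block for the mouse and 18 with limma. The cause of these moves was not tested, beyond the smaller samples where libraries were left out.

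Correlations of deviations between libraries of the same replicate number in different groups ran from -0.603 to 0.699. Libraries of different numbers were not compared, so this range cannot show whether the numbers carry a pairing. With the number as a replicate block, MetR_CE against Ctrl_CE in eWAT went from 3 to 5 and no call was lost. With 4, eWAT had the fewest Ctrl_RT libraries of any tissue, and power was not measured.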
